A study of Mus musculus with 45 samples.

Results

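Respiratory complex II and complex III were followed through 10 of their subunit genes, chosen by symbol from the 55385 genes of the RNA-seq tables. *Sdha*, *Sdhb*, *Sdhc* and *Sdhd* encode the 4 subunits of complex II. *Uqcrc1*, *Uqcrc2*, *Uqcrfs1*, *Uqcrh*, *Uqcrq* and *Uqcrb* encode 6 subunits of complex III. All 10 genes passed the filter on low counts at every stage.

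The 18 libraries came from mouse embryos and mouse ES cells in which both *Gabpa* alleles carry the degradation tag (Gabpa-dTAG/dTAG), and the controls carry it too. The compound dTAG13 joins the tagged GABPA to a ubiquitin ligase, and the proteasome then removes the protein while transcription of the gene goes on. DMSO is the vehicle. Embryos received 1 µM dTAG13 or DMSO from 6 h post fertilization (hpf) until the late two-cell stage (3 libraries each), from 42 hpf until the morula (2 each), or from 84 hpf until the E4.5 inner cell mass (ICM) was isolated by immunosurgery (2 each). The ES cells, a line made from picked clones and grown in 2i/LIF medium (2iES cells), received 0.5 µM dTAG13 for 24 h or DMSO (2 each). The number of clones sequenced is not stated in the sources used here. The study's text places the collection of ICM cells for RNA-seq at the mid-blastocyst stage, while the libraries are labelled E4.5. The dose, the time of treatment and the kind of sample differ between stages and cannot be told apart from any batch of library preparation.

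Complex II, or succinate dehydrogenase, oxidizes succinate in the tricarboxylic acid cycle and passes the electrons to ubiquinone in the inner mitochondrial membrane. SDHA holds the flavin that accepts the electrons, SDHB carries them over iron-sulfur clusters, and SDHC and SDHD anchor the enzyme in the membrane. Complex III moves electrons from reduced ubiquinone to cytochrome *c* and pumps protons, with UQCRFS1 (the Rieske protein), CYC1 and the mitochondrially encoded cytochrome *b* as its redox centres. UQCRC1 and UQCRC2 are its core proteins, UQCRH is the hinge protein at the cytochrome *c* side, and UQCRQ and UQCRB are small subunits near cytochrome *b*. GABPA, also called nuclear respiratory factor 2 alpha, binds DNA through an ETS domain at CCGGAAGT-like sites and is known as a regulator of nuclear genes for the respiratory chain.

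The genes lie on GRCm38 chromosome 13 from 74322254 to 74350280, minus strand (*Sdha*), 4 from 140961203 to 140979193, plus (*Sdhb*), 1 from 171127165 to 171150603, minus (*Sdhc*), and 9 from 50596357 to 50603812, minus (*Sdhd*). *Uqcrc1* lies on chromosome 9 from 108936633 to 108949623, plus, *Uqcrc2* on 7 from 120635176 to 120659524, plus, and *Uqcrfs1* on 13 from 30540308 to 30545362, minus. *Uqcrh* lies on chromosome 4 from 116066965 to 116075071, minus, *Uqcrq* on 11 from 53427922 to 53430831, minus, and *Uqcrb* on 13 from 66900617 to 66905378, minus.

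The RefSeq promoter table (GRCm38.p6, from 250 bases before to 50 after a start) held 6 of the 10 genes, namely *Sdha*, *Sdhb*, *Sdhd*, *Uqcrc1*, *Uqcrfs1* and *Uqcrh*. Searched on both strands, CCGGAAGT stood in 1 of the 6 (*Uqcrh*) and in 3.89% of all 32851 promoters. The shorter core CGGAAG, which overlaps that site and was added after the values were seen, stood in 3 of the 6 and in 16.9% of all promoters. Part of the NRF1 site, GCGCATGC, stood in 2 of the 6 (*Sdhb* and *Uqcrc1*) and in 2.71% of all, and the GC box GGGCGG in 2 of the 6 (*Sdhb* and *Sdhd*) and in 35.7% of all. Part of the YY1 site, AAGATGGC, stood in none of the 6 and in 2.75% of all. The 3 starts that hold the ETS core are shown, 30 bases each and 5′ to 3′ on the strand of the gene, with the core or its reverse complement in capitals:
*Sdhb*, chr4:140961266-140961295, plus strand, core from 7 bases after the RefSeq start: gctcggagaaacCGGAAGcggccttccact
*Sdhd*, chr9:50603878-50603907, minus strand, core on the opposite strand 46 bases before the start: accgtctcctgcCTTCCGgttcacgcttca
*Uqcrh*, chr4:116075063-116075092, minus strand, core on the opposite strand 10 bases before the start: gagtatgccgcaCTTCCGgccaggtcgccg
A match is a description of these letters and not of binding. The CUT&RUN libraries were not analysed here.

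Levels are given as FPKM, which divides the fragments of a gene by its transcript length and by the depth of the library, so that genes of different length can be compared. A change is the log2 fold change of edgeR's quasi-likelihood test on the expected counts of 1 stage, ± its standard error, and a gene passed at an adjusted p-value under 0.05 (Benjamini-Hochberg over all genes tested at that stage). Library totals ran from 9457933 expected counts in a morula library to 27660132 in a 2iES library, and the smallest expected count of any of the 10 genes in a library was 346. Each group holds only 2 or 3 libraries. The study describes its late two-cell, ICM and ES cell RNA-seq replicates as biological. For the morula libraries no such statement was found in the sources used here. The study's reporting summary says that all RNA-seq was repeated, without saying how. The p-values in morulae thus measure a spread that may be technical. The spread was uneven: over genes averaging at least 50 counts, the median chi-square between replicates was 1.63 and 1.69 times the sampling expectation in the 2 ICM groups, 2.86 times with dTAG13 in 2iES cells, and 8.20 to 16.2 times in the other groups. DMSO replicate 1 of the 2iES cells stood apart, with 0.930% of its TPM on mitochondrial genes against 5.47% in replicate 2 and 10.8% and 9.58% with dTAG13. In bulk libraries, fewer cells of a type and less RNA per cell cannot be told apart.

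In control embryos, the complex II transcripts were low at the late two-cell stage. *Sdhb* measured 66.1, 61.6 and 66.0 FPKM and *Sdhd* 55.2, 52.9 and 57.6 FPKM in the 3 DMSO libraries. *Sdhc* measured 18.2, 18.4 and 13.6 FPKM and *Sdha* 11.4, 10.2 and 7.88 FPKM. The libraries of neighbouring genes in this order did not overlap, and mean FPKM of *Sdhb* was 6.56 times that of *Sdha*. Among the 6 chosen complex III genes, *Uqcrh* (339 ± 28.2 FPKM, SD, n = 3), *Uqcrq* (291 ± 39.5) and *Uqcrb* (254 ± 31.6) led at this stage. The libraries of *Uqcrh* and *Uqcrq* overlapped, as did those of *Uqcrq* and *Uqcrb*. *Uqcrfs1* (72.0 ± 10.4), *Uqcrc1* (56.1 ± 7.44) and *Uqcrc2* (36.2 ± 3.03) followed, and the libraries of *Uqcrfs1* and *Uqcrc1* overlapped.

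All 10 genes were higher in control morulae than in control late two-cell embryos, in a fit of the 9 DMSO libraries in which 31.2% of all genes tested passed as higher and 38% as lower. *Uqcrb*, a small subunit of complex III, had the largest rise of the 10. It went from 271, 273 and 217 FPKM to 2838 and 2658 FPKM, a log2 fold change of 3.51 ± 0.17 (edgeR adjusted p = 4.82e-09). *Sdha* followed with 2.24 ± 0.17 (adjusted p = 1.68e-07), from 11.4, 10.2 and 7.88 to 78.7 and 70.7 FPKM. Its mean transcript length, which RSEM weights by isoform, was 2286 bases in control late two-cell embryos and 1447 bases in control morulae. The FPKM of *Sdha* therefore rose by more than its counts. *Sdhd* rose least, by 0.60 ± 0.17 (adjusted p = 0.00676), to 64.5 and 97.6 FPKM. It no longer passed without morula DMSO replicate 2 (log2 fold change 0.26, adjusted p = 0.0909) or with limma on log2(TPM + 1) (0.24, adjusted p = 0.261).

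The complex II genes rose again from the control morula to the control ICM, 4 of 4, where 24.6% of all genes tested were higher and 21% lower. *Sdhd* went from 64.5 and 97.6 to 378 and 377 FPKM, a log2 fold change of 2.07 ± 0.19 (edgeR adjusted p = 4.5e-06). *Sdhc*, *Sdha* and *Sdhb* rose by 1.31 ± 0.19, 1.09 ± 0.18 and 0.80 ± 0.16. Mean FPKM of *Sdha* went only from 74.7 to 98.8, beside a mean transcript length of 1447 bases in morulae and 2409 bases in the ICM. Over the alternatives its log2 fold change ran from 0.64 to 1.19. Of the complex III genes, the core protein genes *Uqcrc1* and *Uqcrc2* rose by 1.41 ± 0.19 and 0.83 ± 0.18. *Uqcrfs1* (0.23 ± 0.16) and *Uqcrq* (0.16 ± 0.15) did not pass. *Uqcrh* fell by 0.71 ± 0.21 (adjusted p = 0.0139) and *Uqcrb* by 0.52 ± 0.18 (adjusted p = 0.0327). Neither passed with limma on log2(TPM + 1), where the values were -0.26 and -0.07. *Uqcrh* also did not pass without morula DMSO replicate 1 (adjusted p = 0.0921) or without ICM DMSO replicate 2 (adjusted p = 0.0552). *Uqcrb* did not pass without any 1 of the 4 libraries (adjusted p = 0.0958 and 0.0565 without morula replicates 1 and 2, 0.0746 and 0.0970 without ICM replicates 1 and 2).

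Between control 2iES cells and the control ICM, *Sdha* was the only one of the 10 that passed as lower in 2iES cells in the TMM-scaled fit. It measured 98.8 and 98.9 FPKM in the ICM and 35.7 and 37.9 FPKM in 2iES cells, a log2 fold change of -1.06 ± 0.18 (edgeR adjusted p = 5.89e-04, the range over the alternatives being 2.45e-06 to 0.00779). Of all genes tested, 20.7% were lower and 21.9% higher. The other complex II genes and *Uqcrc2*, *Uqcrh*, *Uqcrq* and *Uqcrb* passed as higher, 7 of 10, but these calls depended on scaling: 1 was left when only library totals were used for scaling, which moved the median of all genes by -0.33 and the share of lower genes among those that passed from 48.7% to 70.2%, and 0 with limma on log2(TPM + 1). Without any 1 of the 4 libraries *Uqcrc2* did not pass (adjusted p from 0.0767 to 0.137), and *Uqcrq* did not without ICM DMSO replicate 1 or 2 (0.0709 and 0.0683) or 2iES DMSO replicate 1 (0.0509). *Uqcrh* was at 0.55 without 2iES DMSO replicate 2, against 0.93 with it. Mean FPKM of *Sdhb* was 13.6 times that of *Sdha* in 2iES cells, against 4.29 times in the ICM. 

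*Sdhb* had the highest mean FPKM of complex II in the controls of all 4 stages, followed by *Sdhd*. *Sdha* was the lowest except in morulae, where *Sdhc* was (44.6 and 55.9 FPKM against 78.7 and 70.7). The mean transcript length of *Sdha* was 1447 bases in control morulae. It was 2286, 2409 and 2249 bases in the late two-cell, ICM and 2iES controls, so the morula order by FPKM rests partly on this length. Only the morula libraries of *Sdhd* and *Sdha* overlapped. Of the 6 chosen complex III genes, *Uqcrb*, *Uqcrq* and *Uqcrh* led in that order from the morula on, without overlap between libraries. *Uqcrc2* had the lowest mean of the 6 in morulae and the ICM and *Uqcrfs1* in 2iES cells (157 ± 13.1 FPKM, SD, n = 2), where its libraries overlapped those of *Uqcrc2* (163 ± 4.09). The highest mean FPKM of the 6 was 9.36, 33.8, 14.0 and 19.7 times the lowest in the order of the stages. This order leaves out the other complex III subunits, of which control *Uqcr10* had a higher mean FPKM than *Uqcrq* at all 4 stages. The plot of levels by library shows these courses.

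**Figure D1:**
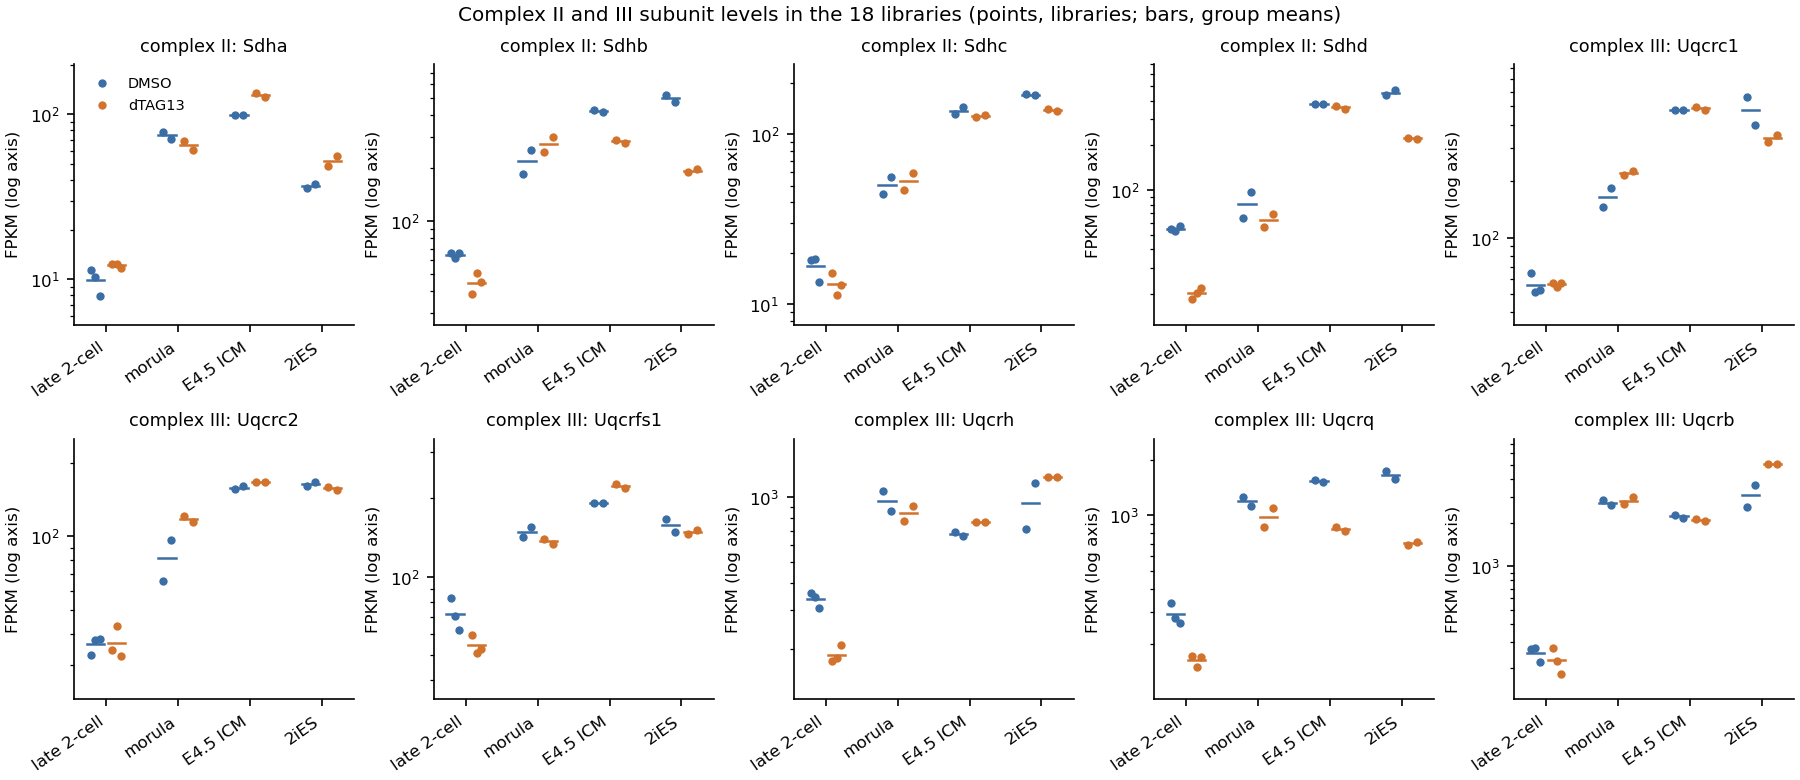
FPKM of the 10 genes on a log axis, by stage, in DMSO (blue) and dTAG13 (orange) libraries; points are libraries and bars are group means. *Sdhd* lies lower with dTAG13 in late two-cell embryos (18.6 to 22.0 against 52.9 to 57.6) and 2iES cells (220 to 225 against 434 to 467), and nearly level in the ICM (353 to 365 against 377 to 378).

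Over the 18 libraries the 10 genes varied together, with Pearson correlations of log2(TPM + 1) between 0.685 (*Sdha* with *Sdhd*) and 0.980 (*Uqcrc1* with *Uqcrc2*) and a median of 0.866 over the 45 pairs. The points share their stage, so these values mostly describe the stages. Among the 6398 other genes with a mean of at least 10 TPM, the one most like each member was *Ndufa10* for *Uqcrc1* (r = 0.996), *Atp5l* for *Uqcrb* (0.994), *1110004F10Rik* for *Uqcrc2* (0.991), *Mdk* for *Sdhc* (0.988) and *Ap3s2* for *Sdhb* (0.988). It was *Hexa* for *Sdha* (0.986), *Mrpl17* for *Uqcrq* (0.985), *Mrfap1* for *Uqcrfs1* (0.979), *Cox7c* for *Uqcrh* (0.975) and *Lcmt1* for *Sdhd* (0.969). *Ndufa10* encodes a subunit of complex I, *Cox7c* one of complex IV, *Atp5l* one of the ATP synthase and *Mrpl17* a protein of the mitochondrial ribosome.

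The mRNA of the targeted gene cannot show its degradation. *Gabpa* mRNA was not lower with dTAG13 at any stage, with a log2 fold change of 0.52 ± 0.11 at the late two-cell stage, 0.95 ± 0.05 in the ICM and 0.93 ± 0.13 in 2iES cells (edgeR adjusted p = 0.0124, 7.77e-19 and 0.00136). In morulae it measured 8.79 and 10.2 FPKM with DMSO and 16.6 and 15.9 FPKM with dTAG13 and did not pass. *Gabpb1*, the gene of its partner subunit, rose at all 4 stages, by 0.65 ± 0.10, 1.28 ± 0.23, 1.33 ± 0.04 and 2.11 ± 0.11 in the same order. The morula call was lost without DMSO replicate 1 (adjusted p = 0.0671) and with limma on log2(TPM + 1) (adjusted p = 0.198).

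At the late two-cell stage, dTAG13-treated embryos had lower transcripts of complex II and complex III subunits: 5 of the 10 genes fell and none rose, where 7.24% of the 17421 genes tested were lower and 1.32% higher. The median log2 fold change of the 10 was -0.45, beside 0.02 for all genes tested. Lower genes were 84.6% of those that passed at this stage, and 66.5% with upper-quartile scaling, which moved the median of all genes by 0.12. *Sdhd*, the membrane anchor, was the only one lower by at least 2-fold, as 3.63% of all genes were. It measured 55.2, 52.9 and 57.6 FPKM with DMSO and 18.6, 20.5 and 22.0 FPKM with dTAG13. The groups did not overlap, and the log2 fold change was -1.51 ± 0.14 (edgeR adjusted p = 5.64e-05, 3 of 3 dTAG13 libraries lower). *Sdhb* measured 66.1, 61.6 and 66.0 FPKM with DMSO and 38.6, 50.9 and 45.1 FPKM with dTAG13, a log2 fold change of -0.60 ± 0.14 (adjusted p = 0.0239). This call was lost without DMSO replicate 1 or 3 (adjusted p = 0.0760 and 0.0645), without dTAG13 replicate 1 or 3 (0.0764 and 0.0685) and with upper-quartile scaling (0.0656).

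In complex III at this stage, *Uqcrq* measured 335, 278 and 259 FPKM with DMSO and 173, 151 and 170 FPKM with dTAG13. It fell by 0.91 ± 0.13 on the log2 scale (edgeR adjusted p = 0.00122). The hinge gene *Uqcrh* measured 362, 347 and 308 FPKM with DMSO and 175, 181 and 207 FPKM with dTAG13, and fell by 0.86 ± 0.12 (adjusted p = 8.56e-04). For both genes every DMSO library lay above every dTAG13 library, and both passed under all 16 alternatives. The Rieske gene *Uqcrfs1* measured 83.1, 70.5 and 62.5 FPKM with DMSO and 60.0, 50.7 and 52.7 FPKM with dTAG13, a log2 fold change of -0.48 ± 0.13 (adjusted p = 0.0475). It passed under 7 of the 16 alternatives, and without DMSO replicates 1 and 2 or dTAG13 replicates 1, 2 and 3 its adjusted p was 0.190, 0.0903, 0.0634, 0.157 and 0.137.

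The other 5 genes did not pass at the late two-cell stage. *Sdha* measured 11.4, 10.2 and 7.88 FPKM with DMSO and 12.3, 12.3 and 11.7 FPKM with dTAG13, without overlap in FPKM, and its counts gave a log2 fold change of 0.10 ± 0.19. Its mean transcript length was 2286 bases with DMSO and 2095 bases with dTAG13. *Sdhc* measured 18.2, 18.4 and 13.6 against 15.4, 11.3 and 12.9 FPKM (-0.43 ± 0.18, adjusted p = 0.208 in edgeR's test). *Uqcrc1* (-0.04 ± 0.11), *Uqcrc2* (-0.08 ± 0.14) and *Uqcrb* (-0.23 ± 0.16) overlapped between the groups. Summed over the 4 genes of complex II, the libraries held 144, 133 and 139 TPM with DMSO and 80.9, 88.2 and 87.7 TPM with dTAG13. The 5 maternal marker genes moved too, at 1350 to 1362 TPM in sum with DMSO and 1715 to 1943 TPM with dTAG13, with 1 of 5 passing as higher and none of the 5 at 0. The part of this in the result was not tested.

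In morulae none of the 10 genes passed in either direction with edgeR, where 0.205% of the 13667 genes tested were lower and 0.161% higher. At an unadjusted p under 0.05 there were 2, and DESeq2 and limma on log2(TPM + 1) also called none. The log2 fold changes ran from -0.29 (*Sdhd*) to 0.61 (*Uqcrc2*). *Sdhd* measured 64.5 and 97.6 FPKM with DMSO and 57.0 and 69.4 FPKM with dTAG13. *Uqcrc2* measured 66.0 and 96.5 FPKM with DMSO and 122 and 114 FPKM with dTAG13, and *Uqcrc1* 145 and 183 against 216 and 227 FPKM. *Sdhb* measured 185 and 253 FPKM with DMSO and 249 and 299.8 FPKM with dTAG13, with overlap between the groups. Without DMSO replicate 2, and in a fit of all 18 libraries, 2 genes passed as higher.

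In the E4.5 ICM the clearest changes were lower transcripts of *Uqcrq* and *Sdhb*. *Uqcrq* measured 1548 and 1524 FPKM with DMSO and 861 and 824 FPKM with dTAG13, a log2 fold change of -0.94 ± 0.03 (edgeR adjusted p = 1.92e-27). *Sdhb* measured 428 and 420 FPKM with DMSO and 291 and 281 FPKM with dTAG13, a log2 fold change of -0.63 ± 0.03 (adjusted p = 1.22e-21). Both passed under all 14 alternatives, with adjusted p-values up to 6.01e-05 and 0.00641. Of the 10 genes, 5 passed as lower and 3 as higher, but the ICM replicates were so close that 38.5% of the 15840 genes tested passed as lower and 38.4% as higher, so that these counts stand near the background. None of the 10 changed by 2-fold, where 13.2% of all genes were lower and 12.1% higher by that measure.

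The other ICM changes were small. *Sdhd* measured 378 and 377 FPKM with DMSO and 365 and 353 FPKM with dTAG13 (log2 fold change -0.13 ± 0.03, edgeR adjusted p = 4.06e-05), and it did not pass without dTAG13 replicate 2 (-0.05, adjusted p = 0.132). *Sdhc* (-0.22 ± 0.04) and *Uqcrb* (-0.13 ± 0.02) fell, and *Sdha* (0.19 ± 0.03), *Uqcrh* (0.16 ± 0.03) and *Uqcrfs1* (0.15 ± 0.03) rose. None of these 6 passed when all 18 libraries shared 1 estimate of the spread, with adjusted p-values from 0.362 to 0.683. *Sdhc* also did not pass with limma on log2(TPM + 1) (-0.12, adjusted p = 0.112). Upper-quartile scaling, which moved the median of all genes by 0.10, left *Sdhd* at -0.03 and *Uqcrb* at -0.03 without a call. *Uqcrc1* (-0.04 ± 0.02) and *Uqcrc2* (0.02 ± 0.03) did not pass. *Uqcrb* was at -0.07 without dTAG13 replicate 1 or 2, and *Uqcrh* at 0.10 without DMSO replicate 2. *Uqcrc1* passed as lower without DMSO replicate 1 or 2 (adjusted p = 0.00627 and 0.0213), and *Uqcrc2* as higher without dTAG13 replicate 1 (0.0272).

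*Sdha* in the ICM measured 98.8 and 98.9 FPKM with DMSO and 134 and 128 FPKM with dTAG13. Its mean transcript length, which RSEM weights by isoform, was 2409 bases with DMSO and 2178 bases with dTAG13, so that its FPKM rose by more than its counts. Cell type markers also differed between the ICM groups, although immunosurgery removes the trophectoderm. The 8 trophectoderm markers all passed as higher, at 65.0 to 70.8 TPM in sum with DMSO and 773 TPM in both libraries with dTAG13. The 7 pluripotency markers all passed as lower, at 791 to 812 TPM in sum with DMSO and 472 to 480 TPM with dTAG13. Of 5 primitive endoderm markers 3 were higher and 2 lower, at 221 to 230 TPM in sum with DMSO and 295 to 297 TPM with dTAG13. No marker of the 3 lists was at 0 in a group. Transcripts of other cells and expression within the ICM cells cannot be told apart here. The part of these marker changes in the subunit changes was not tested.

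In 2iES cells *Sdhb*, *Uqcrq* and *Sdhd* were lower with dTAG13 by more than 2-fold, 3 of the 10 genes beside 15.6% of the 15511 genes tested. *Sdhb* measured 521 and 479 FPKM with DMSO and 190 and 199 FPKM with dTAG13, a log2 fold change of -1.39 ± 0.10 (edgeR adjusted p = 1.23e-04). *Uqcrq* measured 1739 and 1567 FPKM with DMSO and 693 and 717 FPKM with dTAG13 (-1.22 ± 0.11, adjusted p = 2.39e-04). *Sdhd* measured 434 and 467 FPKM with DMSO and 225 and 220 FPKM with dTAG13 (-1.05 ± 0.09, adjusted p = 2.42e-04). The groups did not overlap for any of the 3, and each passed under all 15 alternatives, also without DMSO replicate 1. *Sdhd* was lower by less than 2-fold without dTAG13 replicate 1 or 2 (-0.97 and -0.96), and its smallest change over the alternatives was -0.865. Over the 4 complex II genes the sum went from 989 and 942 TPM to 467 and 470 TPM.

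By the adjusted p-value alone, 5 of the 10 genes were lower in 2iES cells, where 28.1% of all genes were, and 1 was higher, where 26.5% were. *Uqcrc1* measured 559 and 400 FPKM with DMSO and 325 and 351 FPKM with dTAG13 (log2 fold change -0.55 ± 0.17, edgeR adjusted p = 0.0282). *Sdhc* measured 172 and 171 FPKM with DMSO and 141 and 137 FPKM with dTAG13 (-0.33 ± 0.10, adjusted p = 0.0261). The size for *Uqcrc1* was -0.32 without DMSO replicate 1 (adjusted p = 0.00352) and -0.82 without DMSO replicate 2 (adjusted p = 1.87e-06). Without dTAG13 replicate 1 or 2 the adjusted p was 0.164 and 0.0798 for *Uqcrc1* and 0.410 and 0.382 for *Sdhc*. Upper-quartile scaling, which moved the median of all genes by 0.18, also left both without a call.

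*Uqcrb* was the gene that rose in 2iES cells. It measured 2540 and 3642 FPKM with DMSO and 5052 and 5057 FPKM with dTAG13, a log2 fold change of 0.71 ± 0.16 (edgeR adjusted p = 0.00894). Without DMSO replicate 1, the library with few mitochondrial reads, the value was 0.45 (adjusted p = 3.35e-04), and without DMSO replicate 2 it was 0.93 (adjusted p = 6.21e-07). Of the 31-base words of *Uqcrb*, 34.8% occur in other genes, but the value was 0.71 again with the counts of the 2 pseudogenes that share at least 50% of their own words with it added. *Uqcrh* measured 713 and 1168 FPKM with DMSO and 1242 and 1243 FPKM with dTAG13 and did not pass (0.43 ± 0.20, adjusted p = 0.116). The value moved with the DMSO libraries and was 0.10 without DMSO replicate 1 (adjusted p = 0.172) and 0.77 without DMSO replicate 2 (adjusted p = 1.44e-06). *Sdha* (-0.02 ± 0.11), *Uqcrc2* (-0.11 ± 0.09) and *Uqcrfs1* (-0.12 ± 0.11) did not pass. *Uqcrc2* passed without DMSO replicate 1 (-0.16, adjusted p = 0.0334) and *Uqcrfs1* without DMSO replicate 2 (-0.25, adjusted p = 0.00389). The FPKM of *Sdha* was higher with dTAG13 (48.5 and 55.7 against 35.7 and 37.9), beside a mean transcript length of 1661 bases against 2249 bases. The pluripotency markers passed as lower for 3 of 7, at 526 to 630 TPM in sum with DMSO and 376 to 412 TPM with dTAG13, and none was at 0. Of the other markers tested, 2 of 6 for trophectoderm, 1 of 2 for primitive endoderm and 1 of 4 for the two-cell stage passed as higher. The 1 maternal marker tested passed as lower. Of all genes tested, 28.1% were lower and 26.5% higher. The part of these markers and of the mitochondrial share was not tested.

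**Figure D2:**
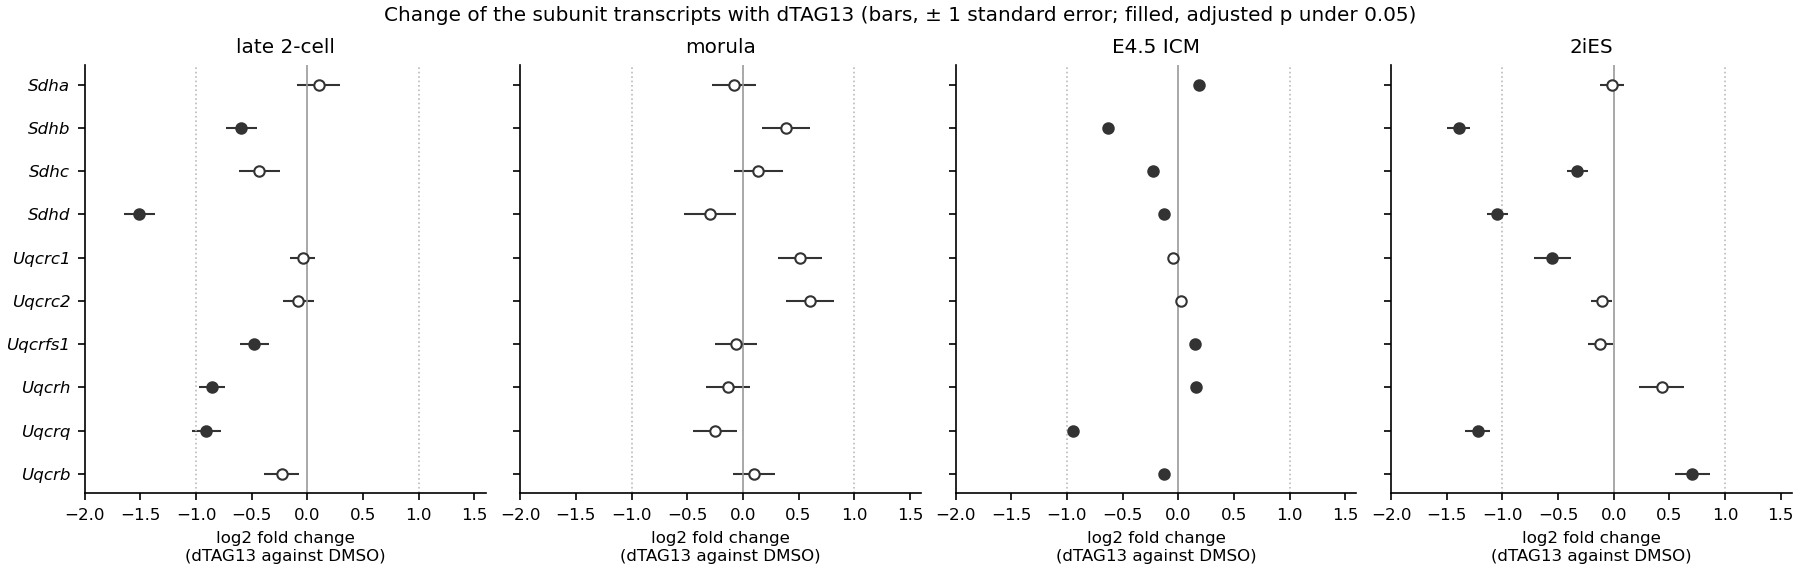
Log2 fold change with dTAG13 of the 10 genes at each stage (x axis; bars, ± 1 standard error; filled points, adjusted p under 0.05; dotted lines, 2-fold). *Sdhb* and *Uqcrq* lie left of 0 in late two-cell embryos (-0.60 and -0.91), the ICM (-0.63 and -0.94) and 2iES cells (-1.39 and -1.22), while no morula point is filled.

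Whether the effect of dTAG13 itself differed between stages was tested as an interaction in 1 fit of the 18 libraries. The 3 contrasts share libraries, and doses and times differ as given above. *Sdhd* fell in late two-cell embryos and 2iES cells by more than in the ICM: the effect in the ICM lay 1.40 ± 0.21 above that at the late two-cell stage (edgeR adjusted p = 1.42e-04), and the effect in 2iES cells differed from that in the ICM by -0.87 ± 0.23 (adjusted p = 0.0124). The latter did not pass without 2iES dTAG13 replicate 2 (adjusted p = 0.0547). For *Uqcrh*, which fell at the late two-cell stage, the effect lay 1.04 ± 0.23 higher in the ICM (adjusted p = 0.00361) and 1.35 ± 0.23 higher in 2iES cells (adjusted p = 2.98e-04). Both differences passed under all 16 alternatives.

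The effect on *Uqcrb* was 1.00 ± 0.22 higher in 2iES cells than at the late two-cell stage (edgeR adjusted p = 0.00298) and 0.88 ± 0.24 higher than in the ICM (adjusted p = 0.0183). For *Sdhb* the effect in 2iES cells differed by -0.73 ± 0.20 from that at the late two-cell stage (adjusted p = 0.0144) and by -0.72 ± 0.22 from that in the ICM (adjusted p = 0.0315). The effect on *Uqcrfs1* lay 0.65 ± 0.17 higher in the ICM than at the late two-cell stage (adjusted p = 0.0116). These calls were less stable to leaving out a library. Against the ICM, *Sdhb* passed without 2iES DMSO replicate 2 but not without any other of the 8 libraries (adjusted p from 0.0591 to 0.0971), and *Uqcrb* passed without 2iES DMSO replicate 2 or dTAG13 replicate 2 but not without any of the other 6 (0.0606 to 0.0961). Against the late two-cell stage, *Sdhb* did not pass without DMSO replicate 1 or dTAG13 replicate 1 of the 2iES cells (0.0584 and 0.0558). *Uqcrfs1* did not pass without late two-cell DMSO replicate 1 (0.0506) or any of the 4 ICM libraries (0.0608 to 0.0803).

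In total 3 of 10 genes differed in 2iES cells against the ICM, 3 in the ICM against the late two-cell stage and 3 in 2iES cells against the late two-cell stage, where 17.4%, 20.3% and 22.9% of the 21915 genes tested did. *Uqcrq*, which passed as lower at all 3 of these stages, had differences of -0.24 ± 0.19, -0.01 ± 0.18 and -0.25 ± 0.18 that did not pass.

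**Figure D3:**
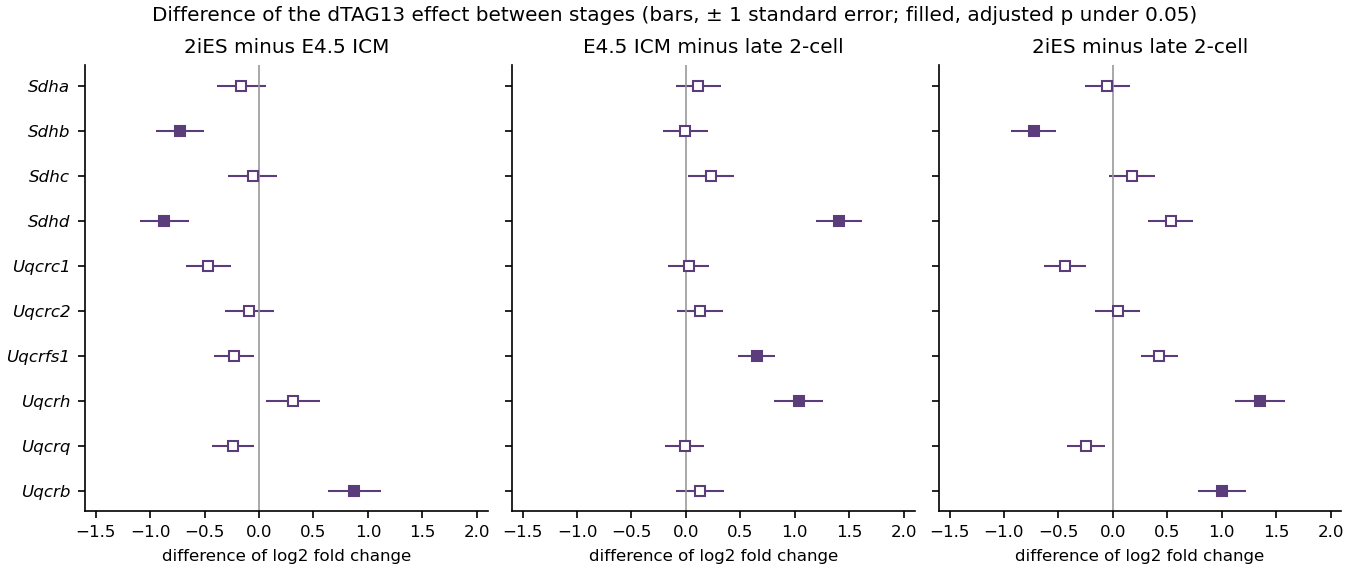
Difference of the dTAG13 effect between 2 stages for the 10 genes, as a difference of log2 fold changes (x axis; bars, ± 1 standard error; filled squares, adjusted p under 0.05). *Sdhd* and *Uqcrh* lie to the right in the ICM against the late two-cell stage (1.40 and 1.04), and *Sdhb* and *Sdhd* to the left in 2iES cells against the ICM (-0.72 and -0.87).

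The remaining subunits of complex III did not all follow the 10. *Uqcr11*, a small subunit, measured 237, 148 and 240 FPKM with DMSO and 65.6, 72.8 and 53.9 FPKM with dTAG13 in late two-cell embryos, a log2 fold change of -1.74 ± 0.21 (edgeR adjusted p = 3.47e-04). It fell by 0.37 ± 0.03 in the ICM and measured 2166 and 1943 against 2004 and 2073 FPKM in 2iES cells. *Cyc1*, the cytochrome c1 gene, fell in 2iES cells from 452 and 369 to 214 and 236 FPKM, by 0.93 ± 0.14 on the log2 scale (adjusted p = 0.00172). At the late two-cell stage it measured 32.8, 35.2 and 27.2 against 41.1, 45.6 and 38.2 FPKM and did not pass. In the ICM *Cyc1* passed at -0.08 ± 0.03, but upper-quartile scaling (0.02) and leaving out dTAG13 replicate 2 (0.01) turned its sign, and it did not pass without dTAG13 replicate 1 (adjusted p = 0.133). *Uqcr10* stayed between -0.03 and 0.24 at all 4 stages and passed only in the ICM (0.06 ± 0.03), where the call was lost without DMSO replicate 1 (-0.01, adjusted p = 0.721) or 2 (adjusted p = 0.107). *mt-Cytb*, cytochrome *b* of the mitochondrial genome, rose in the ICM by 0.56 ± 0.02, beside 10.8% to 11.9% of TPM on mitochondrial genes with DMSO and 16.5% to 16.8% with dTAG13. In a fit of all 18 libraries neither it nor *Uqcr11* passed there (adjusted p = 0.391 and 0.146). In 2iES cells its DMSO libraries measured 542 and 3772 FPKM and its dTAG13 libraries 8109 and 7071 FPKM, and it did not pass (adjusted p = 0.0757).

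Of the 10 assembly factors of both complexes, 3 were lower at the late two-cell stage and none higher, 0 passed in morulae, 7 were lower and 2 higher in the ICM, and 6 were lower and 3 higher in 2iES cells. Over all genes tested, 7.24% were lower at the late two-cell stage, 38.5% lower and 38.4% higher in the ICM, and 28.1% lower and 26.5% higher in 2iES cells. The median log2 fold change of the assembly factors was -0.04, -0.06, -0.51 and -0.82 in the same order, beside 0.02, -0.02, 0.01 and 0.03 for all genes tested. *Sdhaf1*, which is needed for the iron-sulfur clusters of SDHB, had the largest fall among them in the ICM. In 2iES cells the falls of *Sdhaf1* and *Sdhaf2* lay within their standard errors of each other. *Sdhaf1* measured 5.23, 4.5 and 3.93 against 2.53, 2.12 and 2.67 FPKM at the late two-cell stage (log2 fold change -0.98 ± 0.22, edgeR adjusted p = 0.0209). In the ICM it measured 9.05 and 8.26 against 1.02 and 0.75 FPKM (-3.35 ± 0.16, adjusted p = 7.42e-21), and in 2iES cells 18.7 and 14.6 against 3.90 and 4.37 FPKM (-2.04 ± 0.19, adjusted p = 2.62e-04).

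*Sdhaf2*, which attaches the flavin to SDHA, measured 43.9 and 54.7 against 12.4 and 11.0 FPKM in 2iES cells (log2 fold change -2.02 ± 0.15). *Sdhaf3* was lower at the late two-cell stage (-1.83 ± 0.31), at 1.99, 2.51 and 2.36 against 0.44, 0.93 and 0.64 FPKM. These levels are low, at most 0.93 FPKM with dTAG13. *Sdhaf3* also passed as lower in the ICM and 2iES cells. *Sdhaf2* also passed as lower in the ICM but not at the late two-cell stage. *Sdhaf4*, which also serves SDHA, went the other way, from 87.6 and 89.1 to 143 and 145 FPKM in the ICM (0.66 ± 0.05) and from 151 and 158 to 274 and 288 FPKM in 2iES cells (0.83 ± 0.11). *Lyrm7*, which handles the Rieske protein during assembly, rose in 2iES cells from 4.16 and 7.28 to 18.9 and 19.4 FPKM (1.78 ± 0.17), and *Ttc19* rose by 0.84 ± 0.15.

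Of the 14 genes of ubiquinone and cytochrome *c*, the carriers on either side of complex III, 1 was lower at the late two-cell stage, 0 passed in morulae, 7 were lower and 5 higher in the ICM, and 6 were lower and 1 higher in 2iES cells. Beside the shares of all genes given for the assembly factors, the late two-cell and ICM counts stand near the background. *Pdss1*, which makes the isoprenoid tail of ubiquinone, fell at 3 stages. It measured 37.4, 32.5 and 34.8 against 13.4, 10.5 and 15.5 FPKM at the late two-cell stage (log2 fold change -1.65 ± 0.16). In the ICM it measured 41.5 and 35.9 against 10.6 and 12.0 FPKM (-1.79 ± 0.08), and in 2iES cells 70.3 and 62.7 against 19.1 and 21.3 FPKM (-1.85 ± 0.14). *Cycs*, the somatic cytochrome *c* gene, rose in the ICM from 100 and 101 to 169 and 165 FPKM (0.56 ± 0.03) and in 2iES cells by 0.71 ± 0.11. *Coq10a* (-1.47 ± 0.39) and *Coq8a* (0.79 ± 0.21) passed in the ICM at low levels, up to 1.73 and 2.78 FPKM, and the *Coq8a* libraries overlapped between the groups.

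**Figure D4:**
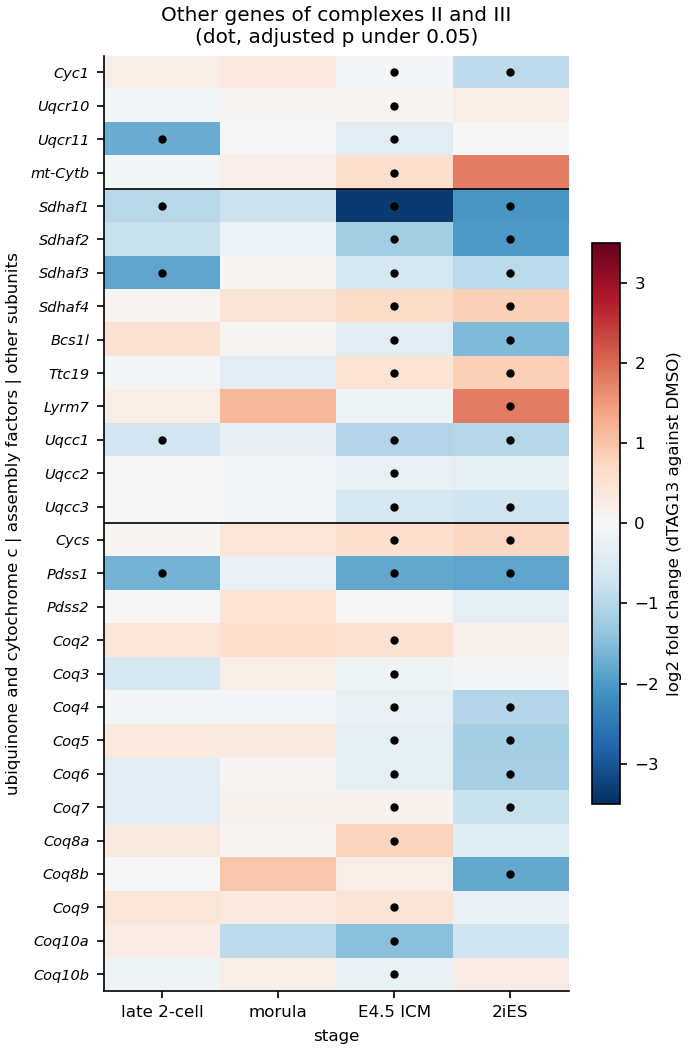
Log2 fold change with dTAG13 (colour) of the other 4 subunits, the 10 assembly factors and the 14 genes of ubiquinone and cytochrome *c* by stage; dots mark an adjusted p under 0.05. *Sdhaf1* has the darkest blue, at -3.35 in the ICM, and *Pdss1* is blue with a dot at 3 stages (-1.65, -1.79 and -1.85).

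Several subunit genes share their start region with another gene on the opposite strand. *Timm8b*, a chaperone of mitochondrial import, starts 98 bases from *Sdhd*. It measured 662, 749 and 724 against 591, 624 and 596 FPKM at the late two-cell stage and did not pass (log2 fold change -0.30 ± 0.09, edgeR adjusted p = 0.0743), while it fell by 0.37 ± 0.03 in the ICM and by 0.59 ± 0.10 in 2iES cells. *Lrrc41* starts 198 bases from *Uqcrh*, and its log2 fold change was -0.40 ± 0.20 at the late two-cell stage (not passed), -0.69 ± 0.07 in the ICM and -1.13 ± 0.26 in 2iES cells, where *Uqcrh* had 0.43. *Ccdc127* starts 29 bases from *Sdha* and passed only in the ICM (-0.12 ± 0.05), against 0.19 for *Sdha*. *Gdf9* starts 192 bases from *Uqcrq*. The library kits hold no strand information. Of the exonic bases of *Uqcrc2*, 19.7% overlap the antisense gene *Pdzd9*, which was at 0.52 FPKM or less, and 5.71% of those of *Uqcrb* overlap *Gm10767*, at 5.01 FPKM or less. RSEM's posterior SD of the expected count was at most 3.78 for any of the 10 genes, against expected counts up to 46837.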

How the data were processed

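The authors prepared libraries with SMART-Seq v4 and Nextera XT, used Trimmomatic for trimming, STAR for alignment to GRCm38 and RSEM for gene quantification. They deposited expected counts, TPM, FPKM and a posterior mean and SD of the counts (a signal here) for 55385 genes. Identifiers were named from GENCODE M21, 54487 with and 657 without their version. The 10 genes, the lists and the tests were chosen with earlier results of these data known.

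Rounded expected counts entered edgeR 4.0.16 (R 4.3.3), 1 quasi-likelihood fit per stage with TMM factors, and a gene was kept if the number of libraries with 10 or more counts reached the size of the smaller group. Differences between stages were interaction contrasts over 18 libraries, and control stages a fit of 9. The authors used DESeq2; here DESeq2 1.42.0 and limma 3.58.1 on log2(TPM + 1) were alternatives. The fits were also run on counts simulated from edgeR's own model with few changed genes. That run tests the code and not the scaling or spread in these data, and its outcome is not reported here. Named beside the 10 genes were *Gabpa*, *Gabpb1*, the other subunits, up to 3 assembly or carrier genes in each direction and stage with the largest change among those that passed, genes that overlap a member or start within 1 kb (not all are reported here), and the gene most like each member. The main fits did not treat same-numbered libraries as pairs. Deviations of same-numbered libraries correlated from 0.052 to 0.125 at the late two-cell stage, where differently numbered libraries correlated from -0.102 to -0.0012. Same-numbered libraries correlated at 0.029 in morulae, -0.046 in the ICM and -0.233 in 2iES cells. With 2 libraries a group, the values of these last stages cannot settle a pairing.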

Additional observations from a re-analysis of the deposited data

Results flagged for a closer look

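The dTAG13 effect differed between stages for 9 comparisons of a gene with an interaction test past the threshold, given as differences of log2 fold changes. In 2iES cells minus the E4.5 ICM they were -0.72 for *Sdhb*, -0.87 for *Sdhd* and 0.88 for *Uqcrb*. In the ICM minus the late two-cell stage they were 1.40 for *Sdhd*, 0.65 for *Uqcrfs1* and 1.04 for *Uqcrh*. In 2iES cells minus the late two-cell stage they were -0.73 for *Sdhb*, 1.35 for *Uqcrh* and 1.00 for *Uqcrb*. With 2 or 3 libraries in a group, outlying libraries were not tested for.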

How the results depend on the processing

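Over the alternatives, 741 values for single genes of the 10 kept their direction and their side of the threshold, 82 no longer passed, 13 passed only there and 22 changed sign. These counts leave out *Cyc1*, *Uqcr10* and the other genes beside the 10. With upper-quartile scaling the number of the 10 genes that passed as lower was 3 at the late two-cell stage, 3 in the ICM and 3 in 2iES cells, and as higher 5 in the ICM and 2 in 2iES cells. In 1 fit of 18 libraries, 2 were higher in morulae, 2 lower and 0 higher in the ICM, and 2 higher in 2iES cells. Without a count filter 2 were higher in 2iES cells. The difference of effect between 2iES cells and the late two-cell stage was lower for 2 genes with relative log expression scaling, library totals or no filter. In control ICM against morula, 1 gene was lower with library totals and 0 with limma on log2(TPM + 1), and in control 2iES cells against ICM 1 and 0 were higher. The cause was not tested.

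Leaving out 1 library at a time gave 3 to 4 lower genes at the late two-cell stage, 0 to 2 higher in morulae, 4 to 6 lower and 3 to 4 higher in the ICM, and 3 to 6 lower and 1 to 2 higher in 2iES cells. It gave 0 to 3 lower and 0 to 2 higher for 2iES cells minus ICM, 0 to 2 lower for 2iES cells minus late two-cell, and 0 to 1 lower for control ICM against morula. A lone library left in a group was taken to vary like the others.

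Some log2 fold changes changed sign, and of the values with the other sign only *Uqcrc1* in the ICM with upper-quartile scaling passed. At the late two-cell stage, *Uqcrc1* was 0.076 with upper-quartile scaling, 0.033 with library totals, 0.012 with limma and from -0.086 to 0.043 without 1 library (0.043 without DMSO replicate 1), and *Uqcrc2* 0.036 with upper-quartile scaling and 0.005 with limma. In the ICM, *Cyc1* was 0.022 with upper-quartile scaling and from -0.121 to 0.005 without 1 library (0.005 without dTAG13 replicate 2). *Uqcrc1* was 0.060, 0.022 and 0.014 with upper-quartile scaling, totals and limma, and from -0.088 to 0.039 without 1 library (0.039 without dTAG13 replicate 2). *Uqcrc2* ran from -0.020 to 0.087 without 1 library (-0.020 and -0.007 without DMSO replicates 1 and 2) and *Uqcr10* from -0.013 to 0.143 (-0.013 without DMSO replicate 1). In 2iES cells, *Sdha* was 0.165, 0.024, 0.375 and 0.039 with upper-quartile scaling, totals, limma and 18 libraries, and from -0.076 to 0.085 without 1 library (0.085 and 0.044 without dTAG13 replicates 1 and 2). With upper-quartile scaling *Uqcrc2* was 0.074 and *Uqcrfs1* 0.063. With limma the control contrast of 2iES cells and ICM was -0.099 for *Uqcrc2* and -0.042 for *Uqcrq*, which had passed at 0.53 and 0.58 with edgeR.

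The replicate numbers were not used as pairs in the main fits. With the replicate number as a block, 1580 genes passed at the late two-cell stage against 1492 without, 392 against 50 in morulae, 11966 against 12174 in the ICM and 8159 against 8469 in 2iES cells, where 2 of the 10 genes were then higher. Crossing the numbers of the 2iES libraries, chosen after seeing the data, gave 8917 genes and also 2 higher. Every late two-cell dTAG13 library correlated best with its own number. Lower genes among those that passed went from 56.0% to 68.8% in morulae with library totals, and from 46.1% to 56.8% in control ICM against morula with upper-quartile scaling. With 2 or 3 libraries a group, the standard errors of the 10 log2 fold changes ran from 0.11 to 0.19 at the late two-cell stage, 0.19 to 0.23 in morulae, 0.02 to 0.04 in the ICM and 0.09 to 0.20 in 2iES cells, which limits the changes that could be detected.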
